A study of Mus musculus with 2 samples.

Results

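The cytosolic ribosome is built from a large and a small subunit, and each protein of these subunits is encoded by its own gene, scattered over the chromosomes. Because a ribosome holds the proteins in fixed proportions, their genes are classic housekeeping genes, expressed in every tissue and kept in balance with one another. Their mRNAs in vertebrates typically begin with a C followed by a run of pyrimidines, the terminal oligopyrimidine motif, through which the mTOR pathway controls their translation. In the adrenal gland, a steroid- and catecholamine-producing organ, these promoters therefore give a view of open chromatin at genes that no single cell type owns.

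The group was chosen by name from the protein-coding genes of the GENCODE M21 basic annotation on mouse assembly mm10. It takes names made of Rpl or Rps, a number and an optional a, x or y, together with Rplp0, Rplp1, Rplp2 and Rpsa. These rules gave 76 genes of 21911 protein-coding genes on 21 chromosomes, 46 for the large subunit and 30 for the small one. Open chromatin was mapped by DNase-seq, in which the enzyme DNase I cleaves accessible DNA and the released ends are sequenced. The tissue was the adrenal gland of male B6CASTF1/J mice aged 8 to 10 months, with no treatment or engineered allele in the labels. B6CASTF1/J animals are F1 hybrids, with one genome from C57BL/6J and the other from CAST/EiJ. There was 1 group, of 2 biological replicates. Each replicate was sequenced as 1 library from 6 pooled biosamples of the gland. A single donor identifier stands on both pools, and whether they come from separate animals is not stated. With 1 group there was no contrast to test, and every comparison below is a description of both pools.

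The deposited peak lists held 117371 peaks in replicate 1 and 146307 in replicate 2, with a median width of 200 bp in both. The sources used here do not state the number of reads behind each library. Genes that mark the labelled tissue were open, since 8 of 8 cortex genes (such as Star and Cyp11b1) and 6 of 7 chromaffin genes of the medulla (such as Chga and Dbh) had a promoter peak in both pools. The seventh, Pnmt, which makes adrenaline, had one in replicate 2 alone. A gland mixes cell types, and a peak that is open in fewer cells cannot be told apart from one that is less open in each cell.

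The promoter sequences with the clearest bearing on the results are shown first. The set holds the 4 members with the strongest promoter peak, the 4 with the weakest, and the members with the strongest peaks among those in which an ETS or YY1 consensus lay under a footprint in both pools. A footprint is a short interval within open chromatin where cleavage is depleted, as it is under a bound protein. Each sequence runs 5′ to 3′ on the gene's strand, from 140 bases before the RefSeq start to 30 bases from it, on GRCm38, and comes from RefSeq (GRCm38.p6). It is the C57BL/6J reference, while the mice also carried CAST/EiJ alleles. Capitals mark bases under a footprint in both pools.
The strongest were Rpl15 at chr14:18270957-18271126 (minus strand), Rplp0 at chr5:115559327-115559496 (plus strand), Rpl13a at chr7:45128716-45128885 (minus strand) and Rpl37 at chr15:5116473-5116642 (plus strand).
Rpl15: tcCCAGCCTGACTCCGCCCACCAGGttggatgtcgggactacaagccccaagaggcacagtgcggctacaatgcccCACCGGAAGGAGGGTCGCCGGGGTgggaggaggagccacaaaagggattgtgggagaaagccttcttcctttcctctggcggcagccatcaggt
Rplp0: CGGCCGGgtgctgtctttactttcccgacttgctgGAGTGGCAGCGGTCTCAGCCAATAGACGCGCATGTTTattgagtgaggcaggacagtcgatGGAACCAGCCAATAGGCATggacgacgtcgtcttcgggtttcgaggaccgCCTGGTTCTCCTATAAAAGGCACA
Rpl13a: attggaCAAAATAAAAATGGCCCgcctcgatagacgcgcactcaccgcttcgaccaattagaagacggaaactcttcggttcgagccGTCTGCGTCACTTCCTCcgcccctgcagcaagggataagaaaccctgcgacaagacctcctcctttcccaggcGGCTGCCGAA
Rpl37: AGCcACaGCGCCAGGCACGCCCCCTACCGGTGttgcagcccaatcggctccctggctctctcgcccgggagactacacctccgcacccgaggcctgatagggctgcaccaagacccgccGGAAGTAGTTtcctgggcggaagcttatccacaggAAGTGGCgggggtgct
The weakest were Rps4x at chrX:102189362-102189531 (minus strand), Rpl4 at chr9:64173247-64173416 (plus strand), Rps10 at chr17:27635215-27635384 (minus strand) and Rpl36a at chrX:134585514-134585683 (plus strand).
Rps4x: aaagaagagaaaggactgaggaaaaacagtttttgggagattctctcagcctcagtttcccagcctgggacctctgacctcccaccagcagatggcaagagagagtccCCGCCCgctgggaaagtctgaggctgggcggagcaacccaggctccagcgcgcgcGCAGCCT
Rpl4: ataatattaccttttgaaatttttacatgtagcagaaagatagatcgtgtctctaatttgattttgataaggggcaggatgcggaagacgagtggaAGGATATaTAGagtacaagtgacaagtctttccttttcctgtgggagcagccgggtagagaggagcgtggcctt
Rps10: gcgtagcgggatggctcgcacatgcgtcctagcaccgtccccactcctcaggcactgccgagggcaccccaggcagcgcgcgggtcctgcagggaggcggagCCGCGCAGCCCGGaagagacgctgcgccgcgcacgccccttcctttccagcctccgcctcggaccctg
Rpl36a: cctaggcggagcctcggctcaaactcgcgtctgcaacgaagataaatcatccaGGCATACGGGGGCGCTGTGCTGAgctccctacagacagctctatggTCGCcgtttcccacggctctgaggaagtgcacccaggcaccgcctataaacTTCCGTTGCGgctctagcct
Rpl15 and Rpl37 were also the first of those with a footprinted ETS or YY1 consensus, followed by Rps21 at chr2:180257239-180257408 (plus strand) and Rpl31 at chr1:39367711-39367880 (plus strand).
Rps21: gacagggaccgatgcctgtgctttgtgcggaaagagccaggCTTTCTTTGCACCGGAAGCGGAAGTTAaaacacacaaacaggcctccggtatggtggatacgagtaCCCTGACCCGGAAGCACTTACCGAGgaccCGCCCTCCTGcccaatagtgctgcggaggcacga
Rpl31: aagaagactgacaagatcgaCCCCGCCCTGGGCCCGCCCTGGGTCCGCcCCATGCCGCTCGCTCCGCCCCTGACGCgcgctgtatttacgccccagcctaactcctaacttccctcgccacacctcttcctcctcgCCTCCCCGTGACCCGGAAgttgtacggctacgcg

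Bases under a footprint in both pools numbered 47 of 170 in Rpl15, 87 in Rplp0, 44 in Rpl13a and 47 in Rpl37. They numbered 13 in Rps4x, 10 in Rpl4, 13 in Rps10 and 37 in Rpl36a. These 8 genes are the ends of the ranking, and over all 76 the signal and the footprint count of the peak were hardly related, with a Spearman's rho of 0.112 in replicate 1 and -0.00991 in replicate 2. For Rpl4 the strongest peak covered 0 of the 170 bases in either pool, and lay upstream, over the start of the divergent gene Zwilch.

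Every one of the 76 genes had a promoter peak, meaning a peak overlapping the interval within 1 kb of an annotated transcription start site (TSS), in both pools. Among all protein-coding genes 62.9% had one in replicate 1, 65.3% in replicate 2 and 61.9% in both. The strongest of these peaks was taken for each gene by the authors' signal, a value of 0 or more per peak whose scaling the sources used here do not state. The members' median signal was 5.33 in replicate 1 and 7.01 in replicate 2, against 3.0 and 4.07 over the 13562 protein-coding genes with a promoter peak in both pools. The ribosomal protein promoters were thus all open, and their typical signal was above that of an open promoter in each pool.

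The signal varied widely among the genes, from 1.35 to 12 in replicate 1 and from 2.17 to 14.4 in replicate 2. In both pools 64 of the 76 lay above the median of open genes, where 48.1% of all such genes did, and 9 lay below it in both pools. A percentile was also taken for each gene among all genes with a promoter peak in that pool, and the members' median percentile was 74.0 in replicate 1 and 76.2 in replicate 2. Above the 90th percentile in both pools were 10 of the 76, or 13.2%, where 9.36% of all open genes were. Taken by pool, the shares were 14.5% against 10.2% in replicate 1 and 19.7% against 10.6% in replicate 2. The members lay mostly in the upper-middle part of the range of open promoters, as the plot of each gene's rank shows. Even the weakest member had a stronger peak than 76.6% of all peaks in replicate 1 and 85.4% in replicate 2.

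**Figure D1:**
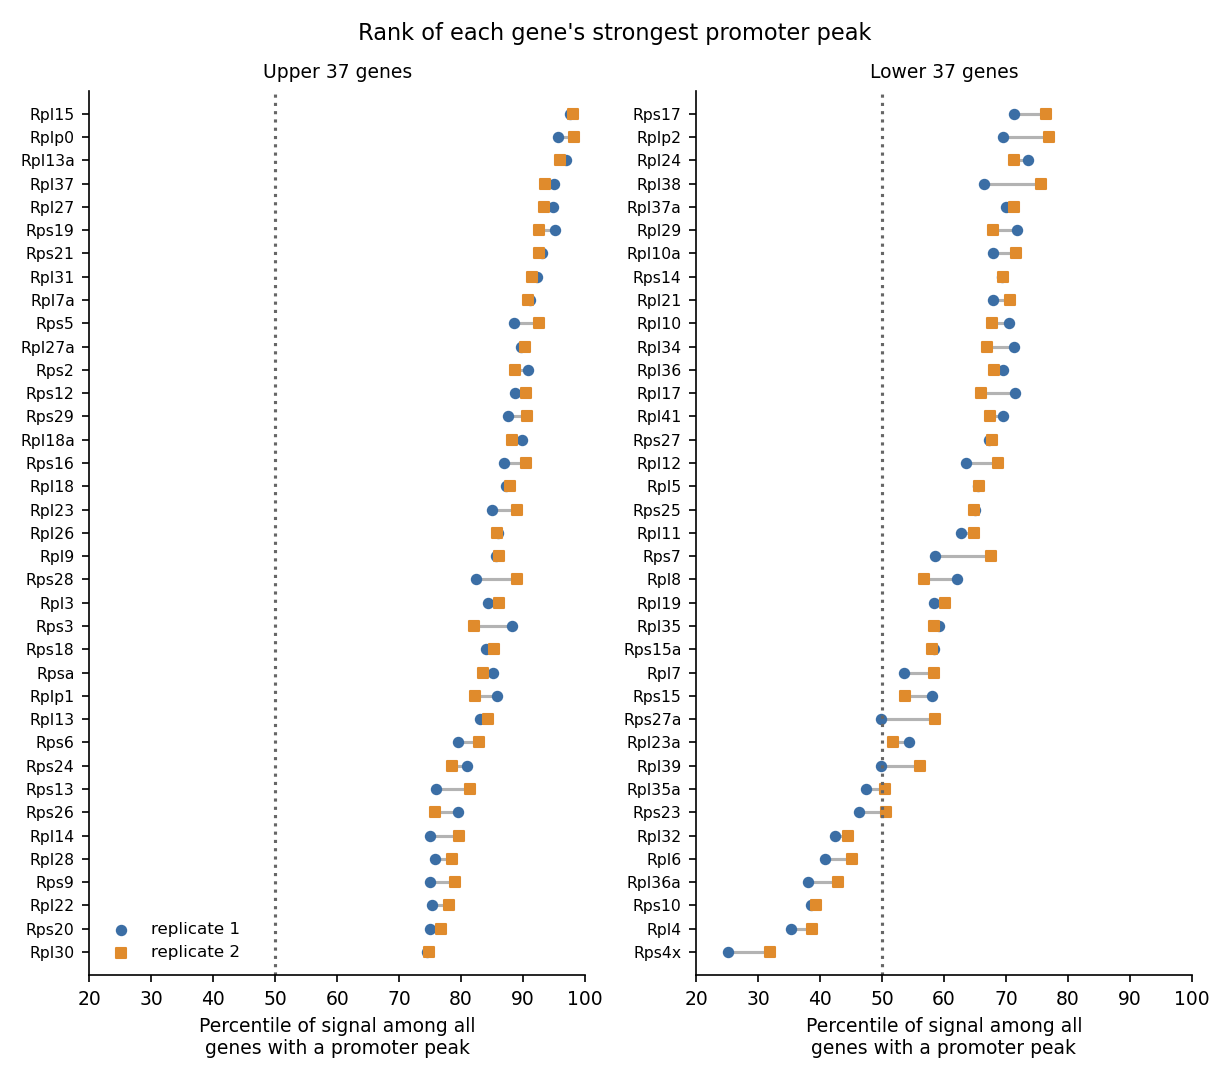
Percentile of the signal of each gene's strongest promoter peak among all genes with a promoter peak in that pool (x axis), for 74 of the 76 genes in order of their mean percentile (y axis), with circles for replicate 1, squares for replicate 2 and a dotted line at the 50th percentile. Ranks run from 25.1 to 97.6 in replicate 1 and from 31.9 to 98.2 in replicate 2, and Rps4x has the lowest rank in both pools.

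The order of the genes repeated closely. The strongest peaks of the 2 pools overlapped for all 76 genes, and Spearman's rho of their signals was 0.972 over the 76 genes, against 0.990 over all open genes, as a description of 2 libraries of the same tissue. Signals were higher in replicate 2 for all 76, as they were for 95.5% of open genes. The log2 ratio of replicate 2 over replicate 1 had a median of 0.35 and an SD over genes of 0.16 in the members, and 0.38 and 0.24 over all open genes. The shift between the pools was therefore shared by open promoters in general.

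**Figure D2:**
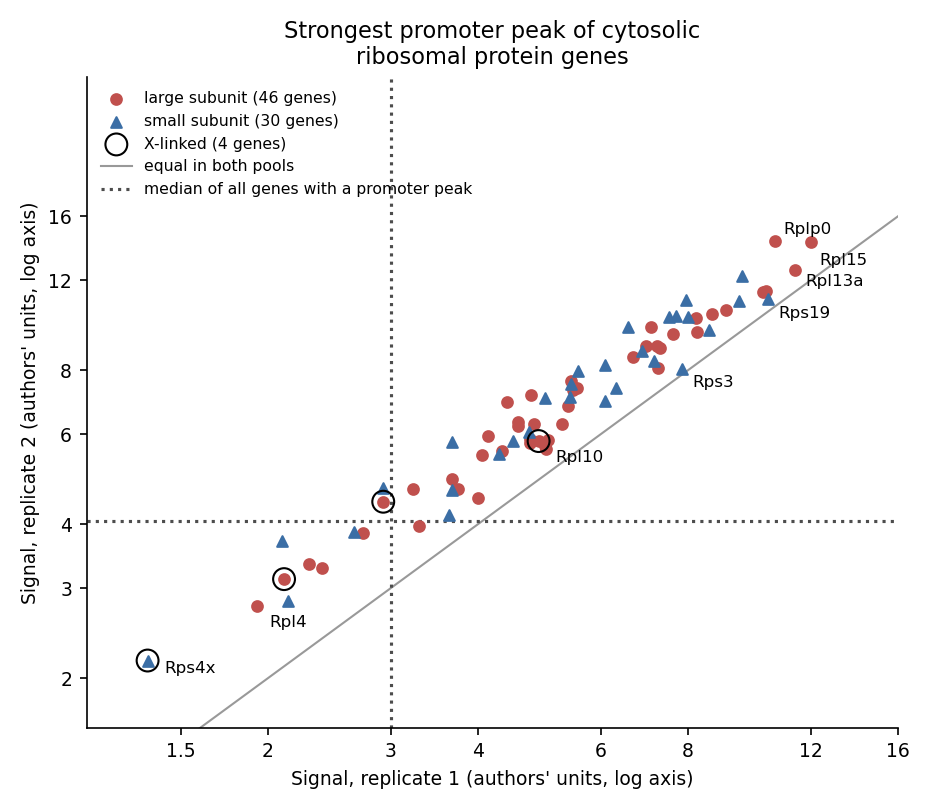
Signal of the strongest promoter peak in replicate 1 (x axis) and replicate 2 (y axis), in the authors' units on log axes, for 46 large-subunit genes (circles) and 30 small-subunit genes (triangles), with the 4 X-linked genes ringed, a solid line of equality and dotted lines at the medians of all genes with a promoter peak (3.0 and 4.07). All 76 genes lie above the line of equality, from Rps4x at 1.35 and 2.17 to Rpl15 at 12 and 14.3.

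The ratios of single genes spread around this median, and with 1 library per pool none was tested. Rps3, a small-subunit protein at the mRNA entry site, had 7.85 in replicate 1 and 8.07 in replicate 2, with the smallest log2 ratio, 0.04. Its strongest peak was nearest a different TSS in each pool, the only member for which this was so. Rps19, Rpl37 and Rpl13a followed with ratios of 0.08, 0.14 and 0.14, and all 3 belonged to the 8 strongest members. Towards the other end stood Rps4x with a ratio of 0.69, Rps27a with 0.69 and Rpl38 with 0.66. Rpl38, a large-subunit protein, had 4.41 and 6.94, and its percentile moved from 66.4 to 75.7.

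Of the large subunit, the acidic stalk, which recruits the translation factors, is formed by Rplp0 and its partners Rplp1 and Rplp2. Rplp0 reached 10.7 in replicate 1 and 14.4 in replicate 2, the highest of all members in replicate 2. Rplp1 had 7.25 and 8.08, and Rplp2 had 4.76 and 7.15. In both pools the base of the stalk thus had the strongest promoter peak and Rplp2 the weakest, and all 3 lay above the median of open genes.

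Rpl15, a core protein of the large subunit, had the highest mean rank, at 12 in replicate 1 and 14.3 in replicate 2. Its peak of 260 bp in both pools also held a start of Nkiras1, a regulator of NF-kappa-B that is transcribed the other way. Rpl13a, known also for silencing of inflammatory mRNAs after its release from the ribosome, had 11.4 and 12.6. Rpl37 had 10.3 and 11.4, and Rpl27 had the same 2 values to 3 digits. These 4 and Rplp0 were the large-subunit genes among the 8 highest.

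Rpl5 and Rpl11 form the particle with 5S rRNA that also restrains Mdm2 and so stabilises p53. Their signals were 4.33 and 5.56 for Rpl5 and 4.06 and 5.48 for Rpl11, with percentiles of 65.5 and 65.6 for Rpl5 and 62.7 and 64.8 for Rpl11. The partners thus lay close together in both pools. The lowest large-subunit genes were Rpl4, with 1.93 and 2.77, Rpl36a, with 2.11 and 3.13, Rpl6, with 2.29 and 3.35, and Rpl32, with 2.39 and 3.29. All 4 were below the median of open genes in both pools.

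In the small subunit, Rps19 had 10.4 in replicate 1 and 11.0 in replicate 2, and Rps21 had 9.47 and 11.0. RPS19 in human is the gene most often mutated in Diamond-Blackfan anaemia. Rps6, the target of S6 kinase downstream of mTOR, had 6.08 and 8.21. Rpsa, which is also known as the laminin receptor, had 7.16 and 8.34. Rps27a, which encodes ubiquitin fused to a ribosomal protein, had 2.93 and 4.71, and so lay just under the median of open genes in replicate 1 and above it in replicate 2. Low small-subunit genes included Rps4x, with 1.35 and 2.17, Rps10, with 2.14 and 2.83, and Rps23, with 2.66 and 3.86. Rps23, a protein of the decoding centre, had percentiles of 46.4 and 50.7, near the middle of open promoters.

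Between the subunits the medians differed by less than the spread within each. The large subunit had a median signal of 5.01 in replicate 1 and 6.32 in replicate 2, with quartiles of 4.08 to 7.25 and 5.50 to 8.92. For the small subunit the medians were 5.82 and 7.46, with quartiles of 3.83 to 7.65 and 5.56 to 9.69. Genes above the median of open genes in both pools numbered 39 of 46 for the large subunit and 25 of 30 for the small one.

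The X-linked members were Rpl10, Rpl36a, Rpl39 and Rps4x, and the mice, being male, have a single X chromosome. Rpl10, near the peptidyl transferase centre, had 4.89 in replicate 1 and 5.82 in replicate 2, and Rpl39, at the exit tunnel, had 2.93 and 4.43. Rpl36a and Rps4x belonged to the 4 weakest members, with the values given above. The median of the 4 genes was 2.52 and 3.78, against 5.44 and 7.13 for the 72 autosomal members. Lower signal was general on the X chromosome, where 436 genes with a promoter peak had medians of 1.82 and 2.41, against 3.07 and 4.15 over 13122 autosomal genes. The X-linked members thus had a higher median than all open X-linked genes and a lower one than their autosomal partners. Chromosome copy number was not tested as the source of this gap.

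The promoter peaks were ordinary in size. Their median width was 240 bp in both pools, as it was over all open genes, with quartiles of 220 to 280 bp. The widest was that of Rps19, at 600 bp in replicate 1 and 660 bp in replicate 2, followed by Rps23 at 480 and 440 bp, Rps25 at 440 and 420 bp and Rpl35a at 420 and 440 bp. Rpl7a was the narrowest at 60 and 140 bp, ahead of Rpl36a at 180 and 60 bp, Rpl36 at 180 and 100 bp and Rpl17 at 180 and 160 bp. A narrow peak was no sign of low signal, since Rpl7a, with 8.66 and 10.3, was among the 10 strongest members. Spearman's rho of signal and width over the 76 genes was 0.0738 in replicate 1 and 0.115 in replicate 2. For signal and GC content of the promoter it was 0.457 and 0.486, against 0.101 and 0.109 over all open genes.

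Widths repeated less closely than signals, with a Spearman's rho between the pools of 0.637 over the 76 genes. They were equal in the 2 pools for 31 genes and differed by over 100 bp for 5, namely Rps21, Rpl26, Rpl23a, Rpl39 and Rpl36a. Rpl26 had a width of 280 bp in replicate 1 and 60 bp in replicate 2, while its signal was 7.29 and 8.86. Rpl23a went the other way, with 160 and 400 bp and signals of 3.30 and 3.97. In both genes the percentile of signal changed little, from 85.9 to 85.8 and from 54.4 to 51.8, while the width of the called peak changed.

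The peaks sat over the start sites. The strongest peak covered the nearest annotated TSS in both pools for 62 of 76 genes, where 64.6% of all open genes did. Peak midpoints lay at a median of -37.0 bp from the TSS in replicate 1 and -29.5 bp in replicate 2, that is, upstream. The exceptions furthest from the start were Rpl35, 464 bp downstream in both pools, and Rpl4, at -364 bp in both. In 18 of the 76 the strongest peak of both pools also held the TSS of another gene, where 16.3% of all open genes had one. The other start belonged to a protein-coding record in 12 cases, or 15.8%, against 11.8% of all open genes. For Rps10 that record was RPS10-NUDT3, which bears its own name and lies on the same strand, so it is no separate neighbour. The strongest 4 of the 18 were Rpl15, Rps2 with the antisense RNA Snhg9, Rps29 with Rn7s1, and Rpl18 with Sphk2, a kinase that makes sphingosine-1-phosphate. For such peaks the share of either gene cannot be told apart, but the 58 members without a second start had medians of 5.41 and 7.09, close to those of the 18 at 5.14 and 6.32.

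By sequence, 57 of the 76 promoters were CpG-rich (over 50% GC and an observed to expected CpG ratio over 0.6 from 250 bp before to 50 bp after the TSS), where 68.5% of all open genes were. The members had a median GC content of 56.3% in that window, below the 61.0% of all open genes. CpG-rich members had median signals of 5.54 and 7.40, against 3.72 and 5.01 over CpG-rich open genes. The 19 members that were not CpG-rich had 4.14 and 5.48, against 1.72 and 2.30 over the open genes of that class. All 19 were open, while of all protein-coding genes outside the CpG-rich class 36.0% had a promoter peak in both pools. The 57 CpG-rich members were all open as well, but so were 92.5% of all CpG-rich protein-coding genes. In that class, which holds most members, an open promoter was thus the usual state. Within either class the members' median was the higher one.

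Footprints were found in nearly every member. At least 1 footprint had its midpoint in the strongest peak of both pools for 75 of the 76 genes, where 95% of all open genes had one. The exception was Rpl7a, whose 60 bp peak held 0 in replicate 1 and whose 140 bp peak held 1 in replicate 2. The median count was 5 in both pools, against 4 and 5 over all open genes. Rps19 held the most, 13 and 12, followed by Rps23 with 12 and 9, Rpl21 with 10 in each pool, and Rpl4 with 7 and 12. These were mostly wide peaks, and Spearman's rho of width and footprint count was 0.653 and 0.668 over the members. For signal and footprint count it was 0.519 and 0.450 over all open genes, against the low values given above for the members.

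Per 100 bp of peak the members had a median of 2.04 footprints in replicate 1 and 2.06 in replicate 2, against 1.67 and 1.82 over all open genes. The 6523 open genes with signals above the median in both pools had 2.06 and 2.08, close to the values of all 76 members. The sets are unlike, since 64 of the 76 members passed that cut, and no density was taken for those 64. Around the TSS, bases under a footprint were the most frequent in the 50 bp just upstream, at 35.3% and 37.8% in the members and 26% and 28.8% over all open genes. In the 50 bp from the TSS onwards the shares were 29.97% and 30.3%, against 18.1% and 20.4%. The members' excess thus reached across the start site into the transcribed side, as the plot of footprints by distance shows. The members' signals are higher, and their strongest peaks covered the TSS in both pools more often, in 81.6% against 64.6%. The part of either in this difference was not tested.

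**Figure D3:**
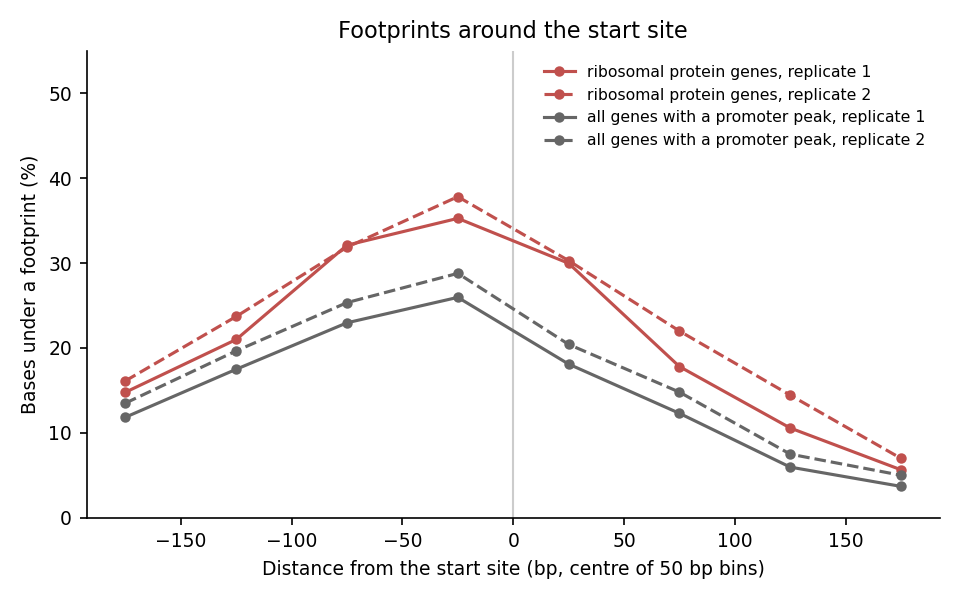
Share of bases under a footprint (y axis, percent) by distance from the TSS (x axis, 50 bp bins) in the 76 ribosomal protein genes and in all 13562 genes with a promoter peak in both pools, with solid lines for replicate 1 and dashed lines for replicate 2. Both curves peak in the bin just upstream of the start, at 35.3% and 37.8% for the ribosomal protein genes.

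The promoters were searched on both strands, from 250 bp before to 50 bp after the TSS nearest the strongest peak, for the consensus letters of 7 factors or families. A match is a description of the letters and not a binding site, and a palindrome was counted once. ETS factors such as GABPA, whose CCGGAAG is common at housekeeping promoters, had a match in 27 of the 76, or 35.5%, against 17.2% of all open genes. YY1, searched as AAGATGG, had one in 11, or 14.5%, against 6.94%. By contrast the GC box of the SP and KLF factors, GGGCGG, was found in 40, or 52.6%, against 65.6%, and the NFY box, CCAAT, in 23, or 30.3%, against 38.3%. The E-box CACGTG, read by MYC and USF, was found in 8, or 10.5%, against 10.1%. The CRE TGACGTCA was found in 5, or 6.58%, against 3.64%, and the NRF1 palindrome in 2, or 2.63%, against 2.03%. Among genes with signals above the median in both pools the shares in the members and in all were 37.5% and 22.8% for ETS, 12.5% and 9.0% for YY1, 50% and 72.1% for SP/KLF and 31.2% and 47.1% for NFY. The gap was thus smaller for ETS and YY1 and larger for SP/KLF and NFY beside promoters of high signal.

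A further motif, TCTCGCGA, which is bound by BANP, was added after the members' sequences had been looked at. It was found in 13 of the 76, or 17.1%, against 2.17% of all open genes. Since it was picked among many strings for being frequent here, that share supports nothing by itself. In the 2 members with the strongest peaks among those with this motif under a footprint and a RefSeq entry, Rpl7a at chr2:26910667-26910836 (plus strand) and Rpl26 at chr11:68901426-68901595 (plus strand), the window reads as follows, with the same marking.
Rpl7a: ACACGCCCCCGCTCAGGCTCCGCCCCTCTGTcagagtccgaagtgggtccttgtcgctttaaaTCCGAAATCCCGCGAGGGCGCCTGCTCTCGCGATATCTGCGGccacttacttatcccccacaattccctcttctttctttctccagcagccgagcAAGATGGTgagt
Rpl26: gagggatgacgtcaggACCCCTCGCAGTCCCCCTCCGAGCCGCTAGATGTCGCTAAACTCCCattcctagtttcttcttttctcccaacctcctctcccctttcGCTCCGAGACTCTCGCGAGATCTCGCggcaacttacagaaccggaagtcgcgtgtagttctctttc
In Rpl7a the match starts at position -52 from the RefSeq start and in Rpl26 at -26, and all 8 bases of each lay under a footprint in both pools. The match in Rpl7a lay past the end of its strongest peak in both pools, and that in Rpl26 past the end in replicate 2. Rpl26 had 72 footprinted bases in this window, all in its peak of replicate 1 and 27 of them in that of replicate 2. Rpl7a had 81 footprinted bases in this window, of which 28 lay in its narrow peak of replicate 1 and 42 in that of replicate 2, so that part of them stood outside the deposited peak.

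**Figure D4:**
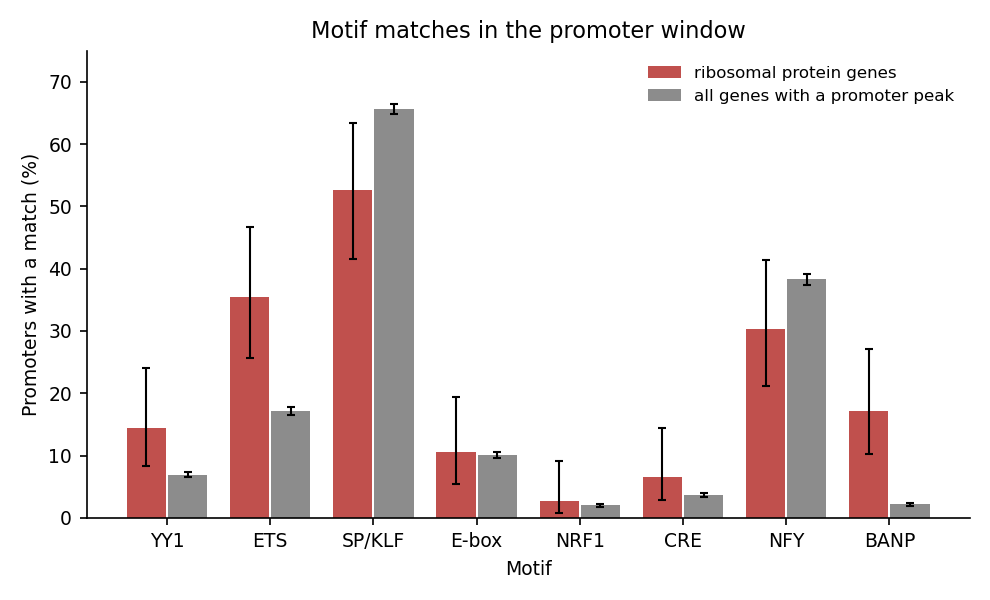
Share of promoters (y axis, percent) with at least 1 match to each consensus (x axis), for the 76 ribosomal protein genes and all 13562 genes with a promoter peak in both pools, with bars from 0 and error bars for the 95% Wilson interval, which covers counting error only. ETS matches were in 35.5% and 17.2%, SP/KLF matches in 52.6% and 65.6%, and BANP, added after the sequences were seen, in 17.1% and 2.17%.

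The share of matches touched by a footprint, by at least 1 bp in both pools, was then counted. Of 34 ETS matches in the members 16 were touched, or 47.1%, against 45.4% over all open genes. For SP/KLF it was 41 of 64, or 64.1%, against 45.3%, and for NFY 7 of 33, or 21.2%, against 22.8%. YY1 had 4 of 11, or 36.4%, in Rpl18, Rpl23a, Rpl30 and Rps27, against 22.5%, and BANP 16 of 20, or 80.0%, against 76.4%. The footprinted AAGATGG printed above for Rpl7a, at position 18 from the RefSeq start, lay outside the searched window and is not counted. The BANP letters are no palindrome, and where they occur on both strands within a longer palindrome the overlapping matches were both counted. Of the ETS, SP/KLF and NFY matches, then, those of SP/KLF were the ones touched more often in the members. Among genes with signals above the median in both pools the SP/KLF shares were closer, 66.7% in the members and 62.2% in all.

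In the printed promoters, of which Rpl15, Rpl37, Rps21 and Rpl31 were chosen for a footprinted ETS or YY1 match, the matches were covered to different extents. Rps21 held CCGGAAG at positions -88 and -26 from the RefSeq start, and all 7 bases of both lay under footprints of both pools. In Rpl15 the 7 bases at -62 were likewise covered. Of the 62 footprinted bases printed for Rps21, 0 lay in its strongest peak of replicate 1, which covered 2 of the 170 bases. All 62 lay in that of replicate 2. In Rpl37, Rpl31 and Rps10 the match was covered in part, with 5, 6 and 4 of its 7 bases. Rplp0 held CCAAT at -87 and -36, each wholly footprinted, and TATAAA from 17 bases after the RefSeq start, also wholly footprinted. The CCAAT matches in Rpl13a, Rpl37 and Rps21 had 0 bases under footprints of both pools, as had GGGCGG at -7 in Rpl37 and CCGGAAG at 4 in Rpl26. Rpl31 held 4 GGGCGG matches, all on the antisense strand, that footprints of both pools touched.

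Around the start sites, letters known from oligopyrimidine mRNAs were found more often than in all open promoters, without being uniform. Runs of pyrimidines were counted after the members' sequences had been looked at. A run of at least 10 pyrimidines on the sense strand lay within 100 bp of the TSS in 54 of the 76, or 71.1%, against 29.5% of all open genes. On the antisense strand the members had such a run in 17, or 22.4%, against 29.5%, so the higher share was on the sense strand alone. Since the runs were picked after these same sequences were seen, that share supports nothing by itself. The mitochondrial ribosomal protein genes, whose products work in another ribosome, had 24.4% and 17.9%. Among the 15 translation factors and other genes with oligopyrimidine starts, a sense run was found in 53.3% and an antisense one in 26.7%. CTTT on the sense strand within 5 bp of the TSS was found in 13 members, or 17.1%, against 4.11%, and at any annotated TSS of the gene it was found in 32.9%, against 7.82%. The 15 translation factors and related genes had CTTT in 26.7% and 46.7% by the same measures, so that it was not particular to the ribosomal proteins. The commonest first base at the annotated TSS was a G, in 39.5% of the members and 46.6% of all open genes, and a C stood there in 34.2% and 17.1%. In the members with a run, it started a median of 28 bp after the annotated TSS, but at -95 bp in Rpl27 and at 87 bp in Rps19. Whether a run marks the start of the mRNA was not tested. The CTTT and first-base shares depend on which start is annotated. TATAAA from 20 to 40 bp before the TSS was found in 0 of the 76 and in 0.966% of all open genes. Anywhere in the searched window on the sense strand it was found in 4, or 5.26%, against 4.22%.

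In the sequences printed above, the longest pyrimidine run was 17 bases in Rpl15, from position -4, 14 in Rpl13a, from position 2, and 13 in Rps10, from position -3. Rpl4 had 14 from position -18 and Rpl7a 21 from position -14. All 5 of these runs stand in lower case, that is, outside the footprints shared by both pools. Over the 54 members with a run, a footprint touched it in both pools in 12, or 22.2%, against 23.0% over all open genes with one.

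Beside related genes, the ribosomal proteins ranked by median signal between translation factors and biogenesis factors. The lists of these genes were chosen with earlier results of the data known. Of 15 translation factors and other genes with oligopyrimidine starts, all had a promoter peak in both pools, with median signals of 7.04 in replicate 1 and 8.94 in replicate 2. Among them Eef1g, a subunit of the elongation factor that reloads eEF1A, had 11.6 and 13.7, and Tpt1 had 10.2 and 12.2. The 30 ribosome biogenesis genes were all open, with medians of 4.88 and 6.18, and the 78 mitochondrial ribosomal protein genes as well, with 3.63 and 4.69. Genes above the median of open genes in both pools were 14 of 15, 23 of 30 and 45 of 78, against 64 of 76 ribosomal proteins. The members' range between quartiles overlapped that of each of the other 3 lists in both pools.

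**Figure D5:**
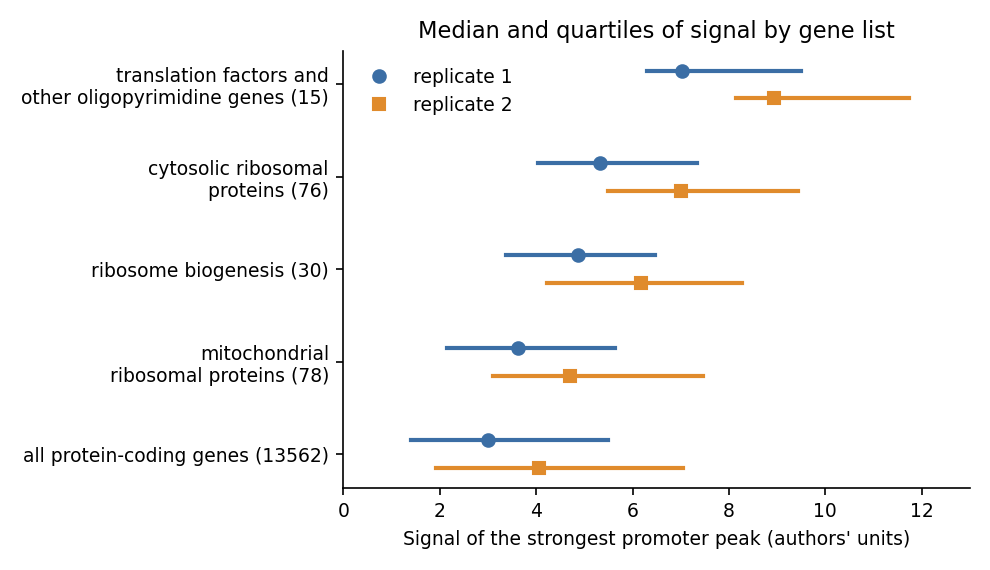
Median (points) and quartiles (lines) of the signal of the strongest promoter peak, in the authors' units, for 4 gene lists and all protein-coding genes with a promoter peak in both pools, with circles for replicate 1 and squares for replicate 2. The cytosolic ribosomal proteins, at 5.33 and 7.01, lie below the translation factors at 7.04 and 8.94 and above the mitochondrial ribosomal proteins at 3.63 and 4.69.

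Ribosomal protein genes that the naming rule left out fell into those with and without a promoter peak. Of 12 matched by name (Rps4l was not matched), 8 had a promoter peak in both pools. That is near the share of all protein-coding genes, 61.9%. These 8 included Fau, which encodes a ubiquitin-like protein fused to a ribosomal protein, with 7.19 and 9.93, and Rps3a1 with 5.97 and 7.59. The paralogue Rpl22l1 had 8.36 and 10.6, above Rpl22 itself at 5.48 and 7.32. Rack1, the scaffold of the small subunit, had 3.28 and 5.38. Rpl10l, known for its role in spermatogenesis, and Rpl39l had no promoter peak in either pool, nor had Rps27rt, while Rpl3l, a paralogue known from muscle, had one in replicate 2 alone, with a signal of 0.512. Of the 76 members none lacked a promoter peak.

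Ribosomal protein genes are also the source of many processed pseudogenes, which are reinserted copies of their mRNAs. Of 292 pseudogenes named after the members 17 had a peak within 1 kb of their start in both pools, or 5.82%, against 4.60% of 9940 processed pseudogenes. Reads from near-identical copies may not be placed uniquely, and the sources used here do not state how such reads were handled. The median signal at pseudogenes with a peak was 0.572 and 0.919, against 0.632 and 0.823 over all processed pseudogenes with one. Both the share and the signal were near those of processed pseudogenes in general.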

How the data were processed

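Whole adrenal gland was assayed by DNase-seq in 2 pools, which are used as the replicates of 1 group. Per the deposited readme texts, peaks, footprints and false discovery rates were derived from the filtered mm10 alignments of each library, without merging the pools. The aligner, callers, thresholds and depth are not given in the sources used. The authors deposited 2 peak lists per pool with a signal per peak of unstated scaling, and the longer list was the main one. The footprint score deposited by the authors was constant, so only intervals were used. The deposited table of FDR values, a p-value adjusted for multiple tests, lists intervals under 0.05 only and gave no value printed here. Since the scaling of signal and the depth are unknown, levels were ranked within a pool, ratios between the pools are given as descriptions only, and no interval for depth could be given.

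Genes and TSSs came from GENCODE M21 basic, with 1 record per symbol. Promoter peaks share at least 1 bp with the 1 kb on either side of a TSS, the strongest by signal was used, and a footprint counted where its midpoint lay in the peak. Python 3.11.15, pandas 2.3.3, numpy 2.4.6 and scipy 1.17.1 were used, and the counting was tested on simulated peaks. The mouse RefSeq promoter table (GRCm38.p6) matched 56 of the 76 genes. It gave the printed sequences, and sequence matching elsewhere read GRCm38. No chromosome 18 sequence is printed.

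Named genes are the 8 highest and 8 lowest by mean percentile, the 4 widest and narrowest, the 4 with the most footprints, the 4 largest and smallest ratios between pools, the 4 strongest that share a peak with another start, the stalk genes, Rpsa and the X-linked genes. A few genes that this rule or the lists name are not reported here. Others (Rpl5, Rpl11, Rps6, Rpl22, Rpl26, Rpl23a and Rpl35 among them) were named after their values were seen. Members and lists were chosen with earlier results of these data known. The BANP letters, pyrimidine runs, pseudogenes, promoters of high signal, RefSeq starts and the use of any annotated TSS were added after seeing the data.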

Additional observations from a re-analysis of the deposited data

How the results depend on the processing

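Both pools kept a promoter peak for all 76 genes with the shorter peak lists, the 50% of peaks with the most signal, equal numbers of peaks (117371), windows of 500 bp and 2 kb, peak midpoints, and the peak nearest the TSS. Of 107 alternative values in all, 92 stayed within the margin set for them and 15 moved further. For medians and touched shares the margin was the SD of the 2 pools, so where the pools were equal any change counted as a move. For shares of promoters it was the 95% Wilson interval, and for the number of genes a fixed factor. A pool taken alone always lies within the SD of the 2 pools, so such values could not count as moved. With each pool alone the median signal was 5.33 and 7.01. The share of member promoters with an NFY match was 21.1% with a motif window of 100 bp before the TSS, and that with CTTT was 32.9% at any annotated TSS. The other moves were shares of matches under a footprint, as a mean of the pools, most of them over few matches. With the 100 bp window they were 62.5% for YY1 (main 50%), 78.4% for SP/KLF (73.4%), 60% for E-box (50%), 100% for CRE (80%), 31.6% for NFY (27.3%) and 94.1% for BANP (85%). With the 5′ end of the gene record they were 68.8% for SP/KLF, 45.5% for E-box and 24.2% for NFY. With RefSeq starts they were 65.4% for ETS (57.4%), 74.5% for SP/KLF, 40% for E-box and 25% for NFY. Over all open genes the NFY match share was 25.8% with the 100 bp window (main 38.3%) and CTTT 7.82% at any TSS (4.11%). Their touched shares with that window were 37.4% for YY1 (32.1%), 55.9% for SP/KLF (54.5%) and 49.2% for E-box (45.7%). They were 92.8% for CRE (90.3%), 35.6% for NFY (31.5%) and 84.5% for BANP (80.6%). With the gene record they were 53.3% for SP/KLF, 42.0% for E-box and 28.7% for NFY. With RefSeq starts they were 57.8% for ETS (56.6%), 54.8% for SP/KLF, 45.8% for E-box and 31.6% for NFY. The cause of these moves was not tested. No paired analysis was possible because the 2 pools form 1 group with no contrast. The unknown depth limits what the absence of a footprint shows.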
